A study of Cyprinus carpio with 12 samples.

Results

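The carp genes described here, by the DNA methylation regions listed at them, were huwe1 (LOC109065358), birc6, cops6 (LOC109069348) and nbeal1 (LOC109082336). The regions were all those of the sperm list and of the embryo list that touched the body of one of these genes or the 5 kb on either side of it. There were 13 such regions of 80043 in all, 6 of the 41022 sperm regions and 7 of the 39021 embryo regions. The 4 genes had been chosen by measured values: the study singled them out among genes with listed methylation regions and with RNA that differed in the embryos, so the counts and levels below are a description and no test was applied to them.

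The methylomes came from whole-genome bisulphite sequencing of common carp (Cyprinus carpio), in which unmethylated cytosine is converted and read as thymine while methylated cytosine is not. There were 12 libraries in 4 groups of 3: sperm at 0 days and at 14 days after stripping, and mid-blastula embryos fathered by each kind of sperm. The same males gave the fresh and the stored sperm, the eggs came from a single female, and each embryo library held a pool of embryos. Collected sperm was diluted in an extender, and stored sperm was kept on ice for 14 days. The study used several hormone injections and strippings, and it was not stated whether both kinds of sperm of 1 male were taken at a single stripping. Storage and the day of stripping or of fertilisation therefore cannot be told apart.

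Each list gave, for every region, 1 methylation level for the fresh group and 1 for the 14-day group. The level is the share of reads at CG cytosines that were methylated. Levels of single libraries and read depths were not used here, so no level below carries an SD and the precision of each difference is unknown. A region is called hyper where its level was higher in the 14-day group, and hypo where it was lower. All listed regions differed by at least 10 percentage points and held at least 5 CG cytosines, counted on both strands. A stretch absent from a list need not have had equal levels, since only regions past those limits and the authors' p-value limit were listed. The cell type of sperm and embryo libraries could not be checked by marker genes from such lists.

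Proteins of these genes act in ubiquitin-dependent protein turnover, except NBEAL1, which belongs to a family known for membrane traffic. HUWE1 is a very large ubiquitin ligase of the HECT class that, in mammals, marks proteins such as MCL1 and N-MYC for destruction. BIRC6 is a giant member of the inhibitor of apoptosis family that carries its own ubiquitin-conjugating domain. In mammals it acts on caspases and on antagonists of that family. COPS6 is a subunit of the COP9 signalosome, the complex that strips the ubiquitin-like protein NEDD8 from cullins and so cycles cullin-RING ligases. NBEAL1 is a BEACH domain protein, and human NBEAL1 takes part in cholesterol regulation at the Golgi. In vertebrates, gene bodies are mostly highly methylated in sperm. Early mammalian embryos are globally demethylated, whereas in zebrafish the embryo reaches a sperm-like methylome by the mid-blastula stage.

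A listed region lay at 3 of the 4 genes in sperm and at all 4 in embryos. Among 41870 protein-coding genes on the 50 chromosomes, 39.9% had a sperm region in the body or flank, 37.9% an embryo region, and 21.4% both. Of the 3348 protein-coding genes of 40 to 90 kb, the size of huwe1, birc6 and nbeal1, 77.9% had a sperm region and 74.7% an embryo region. These shares stand as background only, because the genes had been picked for having such regions. In sperm, 4 of the 6 regions were hyper, against 62.0% of the whole sperm list. In embryos, 2 of the 7 regions were hyper and 5 were hypo, against 50.4% hyper over the whole embryo list. The 2 hyper embryo regions lay beside cops6, and the 5 hypo regions lay in the bodies of huwe1, birc6 and nbeal1. Gene bodies held 9 of the 13 regions and flanks held 4, all 4 of them at cops6. Together the genes and flanks spanned 239.7 kb, with 2.50 sperm regions per 100 kb against 2.48 over all chromosomes, and 2.92 embryo regions per 100 kb against 2.35.

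**Figure D1:**
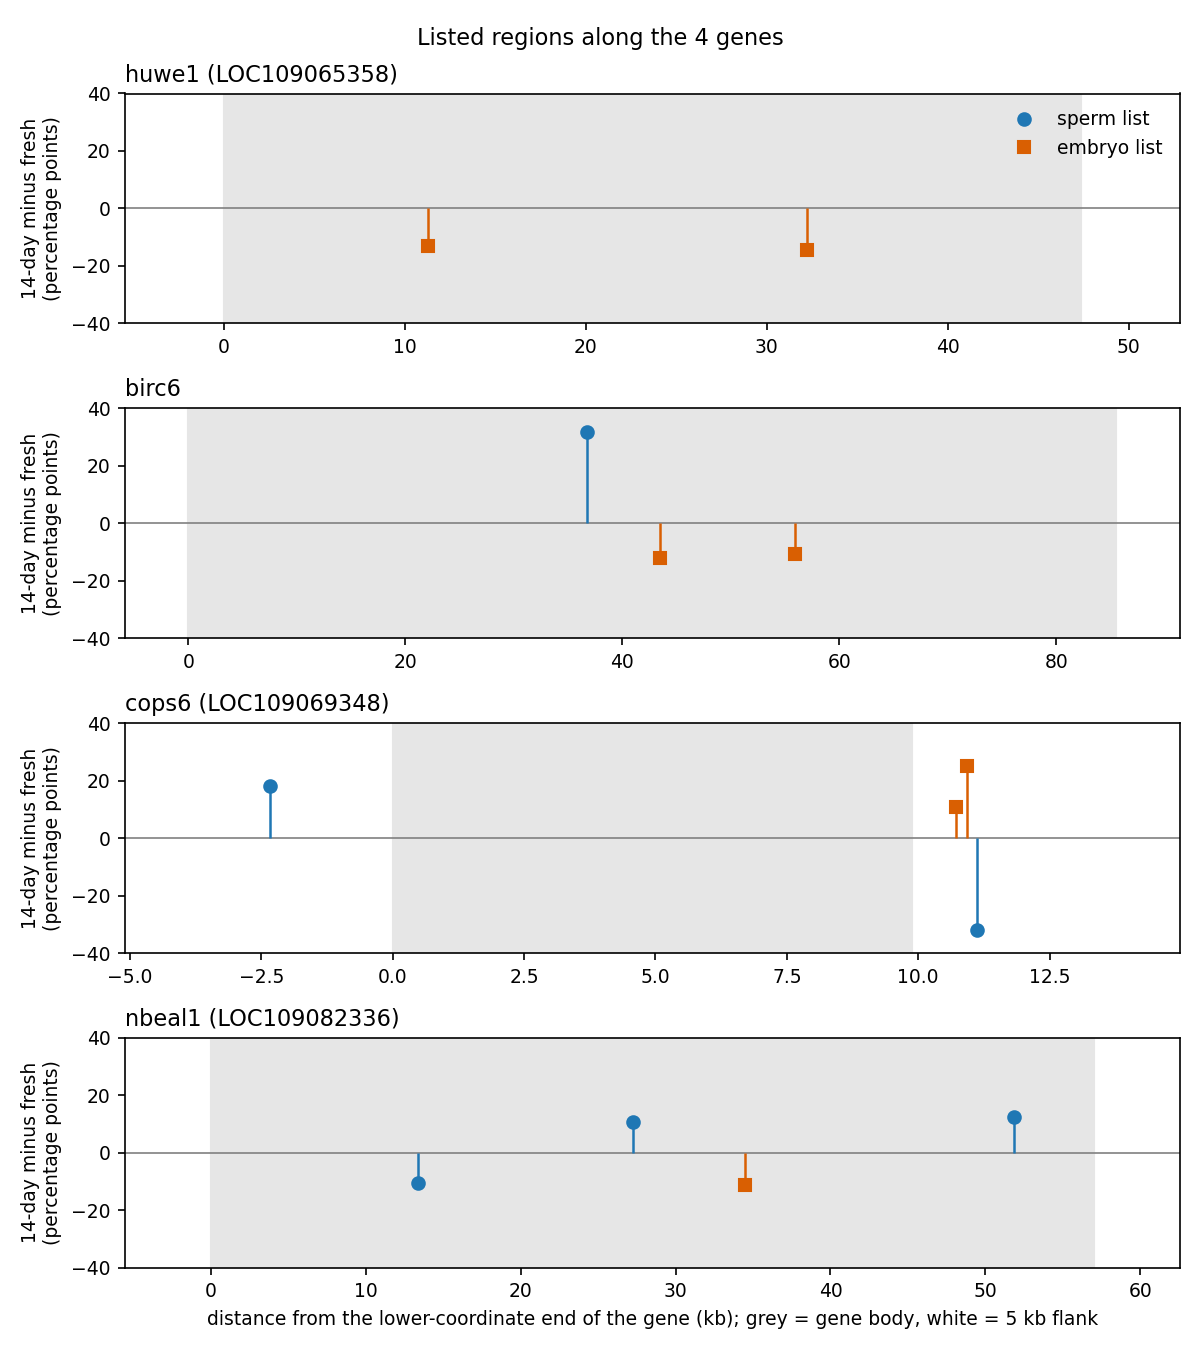
Position and size of the 13 listed regions. Each panel is a gene, the x axis is the distance in kb from the lower-coordinate end of the gene (grey, gene body; white, 5 kb flank), and the y axis is the level of the 14-day group minus that of the fresh group in percentage points; circles are sperm regions and squares embryo regions. All 4 regions of cops6 lie outside the grey body, and the 5 embryo regions in the other 3 gene bodies point downwards.

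The ubiquitin ligase gene huwe1 (LOC109065358) lay on chromosome A23 from 14595499 to 14642839, a span of 47.3 kb with 10 annotated transcripts. It had no listed sperm region in its body or flank, nor within 15 kb of its ends, and 22.1% of genes of 40 to 90 kb likewise had no sperm region. In embryos it had 2 regions, both hypo and both inside the gene body. The first, at A23 14606700 to 14606835, held 5 CG cytosines, and its level was 90.04% in embryos of fresh sperm and 77.1% in embryos of 14-day sperm, a difference of -12.9 percentage points. It lay 11.2 kb into the gene from its lower-coordinate end. The second, at A23 14627686 to 14627700, packed 8 CG cytosines into 15 bp, and its level was 99.0% in the fresh group and 84.6% in the 14-day group, a difference of -14.4 points. Both regions were highly methylated in the fresh group and remained mostly methylated in the 14-day group.

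Differences as large as those of huwe1 were common in the embryo list, where 44.6% of regions differed by at least as much as the first and 31.5% by at least as much as the second. There were 3.49 embryo regions per 100 kb of huwe1 and its flanks, against 2.35 over all chromosomes. The values were 2.09 for birc6, 1.49 for nbeal1 and 10.1 for cops6. Each of the 4 rests on 1 or 2 regions, at genes picked for having them. With a 10 kb flank the value for huwe1 was 5.94. Of 1588 protein-coding genes with no sperm region and 2 or more embryo regions, 335 had only hypo embryo regions as huwe1 did (21.1%). The nearest listed sperm region lay 61.1 kb from the second huwe1 region and was hypo.

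The apoptosis inhibitor gene birc6 was the longest of the 4, at 85.5 kb on chromosome B17 from 11242226 to 11327736, with 7 annotated transcripts. It had 1 sperm region and 2 embryo regions, all in the gene body, and the sperm region went the opposite way to the embryo regions. The sperm region, at B17 11278898 to 11278971, held 5 CG cytosines, and its level was 60.4% in fresh sperm and 92.0% in 14-day sperm, a difference of 31.6 points. Only 0.987% of sperm regions differed by as much, in either direction. Of the 13 regions, 10 were above 80% in the fresh group, whereas this one was at an intermediate level, as did 22.8% of hyper sperm regions (fresh level under 75%).

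In embryos the first birc6 region, at B17 11285634 to 11285831 with 5 CG cytosines, was at 99.2% in the fresh group and 87.2% in the 14-day group, a difference of -12.0 points. The second, at B17 11298114 to 11298220 with 5 CG cytosines, was at 97.4% and 86.8%, a difference of -10.6 points. Both changes were ordinary in size for the list, with 57.0% and 82.3% of embryo regions differing by at least as much. The second region also lay inside LOC109070473, a long non-coding RNA gene within birc6 (B17 11297579 to 11300373), so it cannot be given to birc6 alone. The sperm region and the nearer embryo region were separated by 6.66 kb. Of 8946 protein-coding genes with regions in both lists, 1471 (16.4%) had, like birc6, only hyper sperm regions and only hypo embryo regions.

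**Figure D2:**
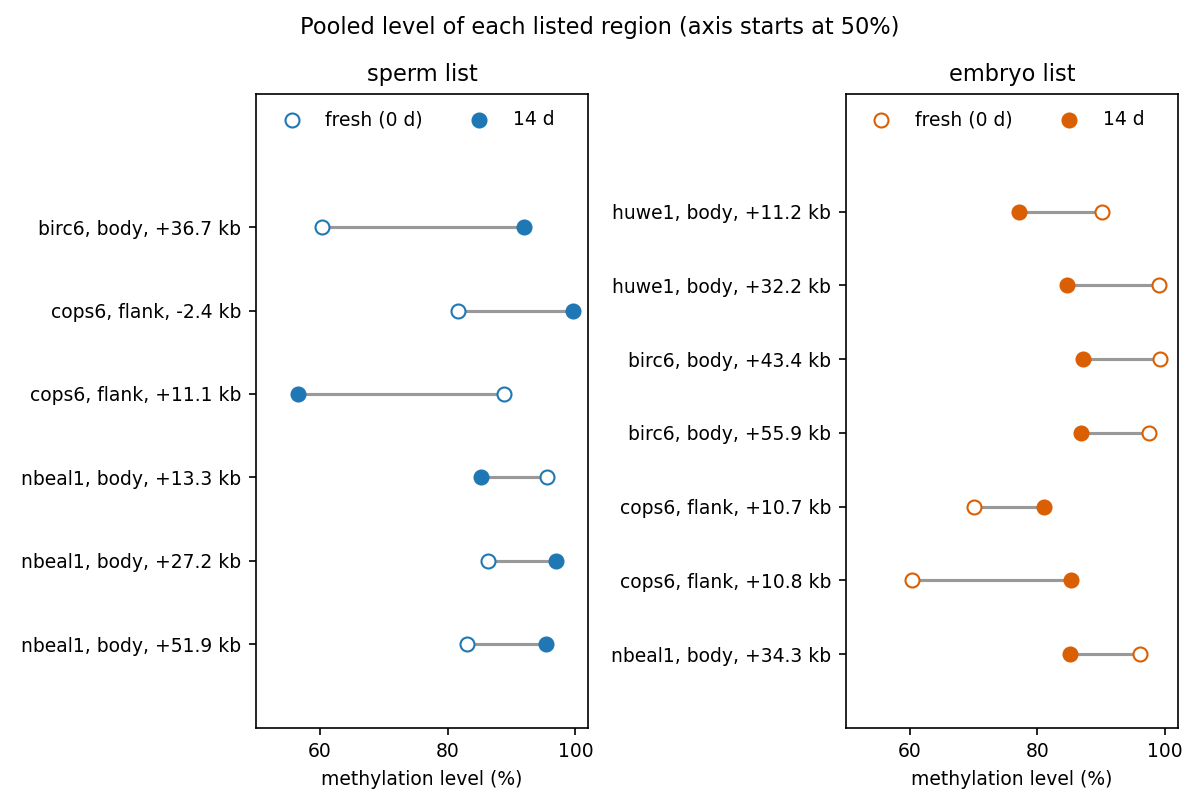
Pooled methylation level of each of the 13 regions. The x axis is the level in percent and starts at 50%; open circles are the fresh group, filled circles the 14-day group, and each row is a region named by its gene, its place and the distance in kb from the lower-coordinate end of the gene. The widest gaps are those of birc6 and of the hypo cops6 region in sperm, and the 5 hypo embryo regions all start at 90.04% or higher.

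The COP9 signalosome gene cops6 (LOC109069348) was the shortest, at 9.88 kb on chromosome A14 from 29994447 to 30004326, with 1 annotated transcript. No listed region of either list touched its body. Its 4 regions lay in the flanks and inside neighbouring protein-coding genes, which had no names in the gene table. On the lower-coordinate side, a sperm region at A14 29992061 to 29992172 with 5 CG cytosines was at 81.7% in fresh sperm and 99.7% in 14-day sperm, a difference of 18.0 points. It lay 2275 bp from cops6 and inside LOC109088545, and 14.0% of sperm regions differed by as much.

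On the other side of cops6 a sperm region and both embryo regions fell within 494 bp of one another, all inside LOC109069359 (A14 30005003 to 30007003), a gene that starts 677 bp beyond the end of cops6. The sperm region, at A14 30005530 to 30005595 with 5 CG cytosines, was at 88.8% in fresh sperm and 56.7% in 14-day sperm, a difference of -32.1 points. Only 0.89% of sperm regions differed by as much. The nearer embryo region, at A14 30005287 to 30005462 with 7 CG cytosines, was at 60.3% in the fresh group and 85.3% in the 14-day group, a difference of 24.95 points. The 2 lists thus pointed in opposite directions across a gap of 67 bp, hypo in sperm and hyper in embryos. The regions shared no cytosine.

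The remaining cops6 region, in embryos, lay 41 bp before the last one, at A14 30005102 to 30005245. It held 32 CG cytosines in 144 bp, and only 0.161% of embryo regions held as many. Its density was less unusual, at 4.5 bp per cytosine, as 14.9% of embryo regions had under 5 bp per cytosine. Its level was 70.1% in the fresh group and 81.0% in the 14-day group, a difference of 10.9 points, close to the lower limit of the list. Both embryo regions beside cops6 were under 75% in the fresh group, as were 33.4% of all hyper embryo regions. Over all embryo regions on the chromosomes, 21.0% had a sperm region within 1 kb, and in 50.4% of those 7539 cases the nearest sperm region went the opposite way. Among the 8946 genes with regions in both lists, 720 (8.05%) had sperm regions in both directions and only hyper embryo regions.

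The BEACH gene nbeal1 (LOC109082336) spanned 57.0 kb on chromosome A6 from 2435732 to 2492719, with 1 annotated transcript. It had the most sperm regions of the 4 genes, 3 in its body, and 1 embryo region, also in its body. Of protein-coding genes of 40 to 90 kb, 24.4% had 3 or more sperm regions. The sperm regions were small in effect and mixed in direction. At A6 2449052 to 2449080, with 6 CG cytosines, the level was 95.6% in fresh sperm and 85.3% in 14-day sperm, a difference of -10.3 points. At A6 2462932 to 2462983, with 5 CG cytosines, it was 86.3% and 97.0%, a difference of 10.7 points. At A6 2487584 to 2487621, with 5 CG cytosines, it was 83.0% and 95.4%, a difference of 12.4 points. The hypo region lay nearest the lower-coordinate end and both hyper regions lay further in, the last of them 5.10 kb from the other end.

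The embryo region of nbeal1, at A6 2470027 to 2470340 with 5 CG cytosines spread over 314 bp, was at 96.1% in the fresh group and 85.1% in the 14-day group, a difference of -11.0 points. It lay 7.04 kb from the nearest sperm region of the gene, which was hyper. None of these 4 differences was large for its list: 49.7% to 90.5% of sperm regions and 73.6% of embryo regions differed by at least as much. Averaged over the cytosines of its 3 sperm regions, nbeal1 was at 88.7% in fresh sperm and 92.1% in 14-day sperm, with regions in both directions. Sperm regions in both directions with only hypo embryo regions occurred at 704 of the 8946 genes with regions in both lists (7.87%).

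A second gene, named nbeal1 in the gene table itself, lay on chromosome B6 from 4344852 to 4397782, on the chromosome of the same number in the other subgenome. Common carp is an allotetraploid and keeps many genes in such pairs, but their sequences were not compared here. This gene had no sperm region and 1 embryo region in its body, at B6 4357255 to 4357285 with 5 CG cytosines, at 98.1% in the fresh group and 87.2% in the 14-day group. Its difference was -10.9 points, in a list where 73.6% of regions differed by 11.0 points or more, and it lay 12.4 kb into the gene.

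Across the 4 genes, no sperm region shared a base with an embryo region, and over all chromosomes only 8.11% of embryo regions shared one with a sperm region. The hypo embryo regions of huwe1, birc6 and nbeal1 resembled one another: each was between 90.04% and 99.2% in the fresh group and lower by 10.6 to 14.4 points in the 14-day group. Such a start was usual, as 69.0% of all hypo embryo regions began at 90% or above. Median absolute differences were 15.2 points for the 6 sperm regions and 12.0 points for the 7 embryo regions, against 12.4 and 12.5 points over the whole lists. Of the members, 2 sperm regions and 1 embryo region differed by 20 points or more, those of birc6 and cops6, against 9.28% of all sperm regions and 9.98% of all embryo regions. Of the 13 members 9 held 5 cytosines, the minimum of the lists, as did 59.8% of all sperm regions and 58.6% of all embryo regions.

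**Figure D3:**
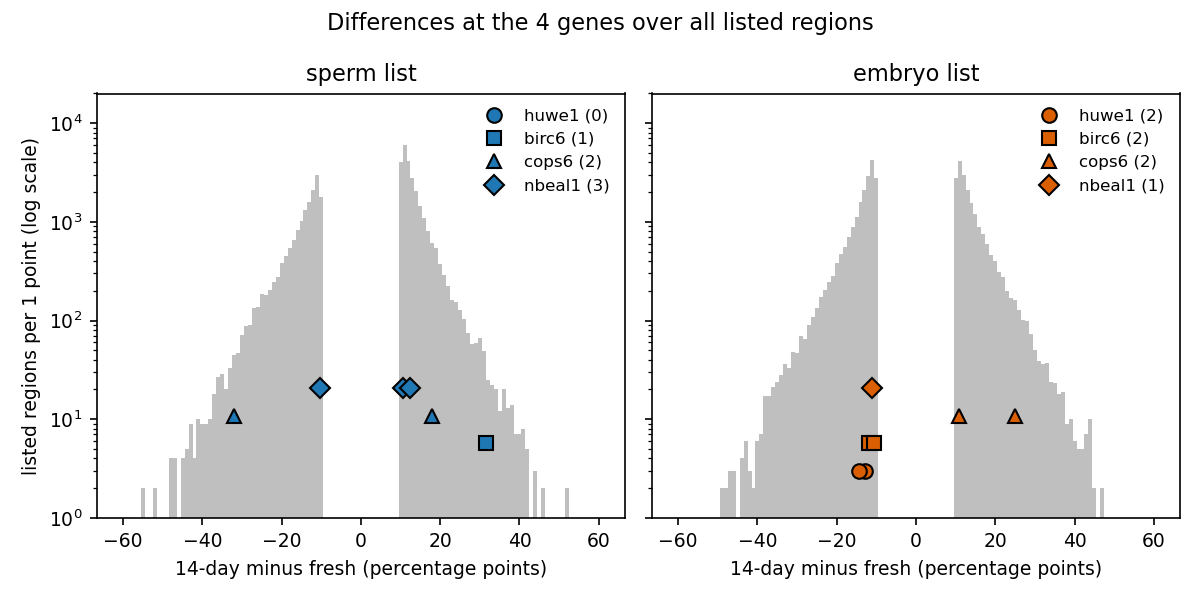
Differences at the 4 genes over those of all listed regions. The x axis is the level of the 14-day group minus that of the fresh group in percentage points and the grey bars count listed regions per point on a log axis; symbols mark the members at heights chosen only to separate the genes, with the number of regions in brackets. Most symbols stand near the inner edges at 10 points, and 1 birc6 region and 2 cops6 regions stand more than 20 points from 0.

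The 5 kb limit left out regions that lay just beyond it. The nearest excluded region was a sperm region 5316 bp before nbeal1, inside LOC109082340, which was at 88.7% in fresh sperm and 99.6% in 14-day sperm, a difference of 10.9 points. An embryo region 6600 bp beyond huwe1, in no annotated gene, was at 95.1% and 84.7%, a difference of -10.4 points. A further hypo embryo region lay 8339 bp before huwe1, with a difference of -11.6 points. Embryo regions also lay 6919 bp before nbeal1, with -10.8 points, and 9279 bp beyond cops6, with 10.4 points. A sperm region 9793 bp before cops6 differed by -12.4 points. The included flank region farthest from its gene was the sperm region 2275 bp from cops6.

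Genes with related roles were taken from lists of zebrafish-style symbols, and symbols absent from the gene table went uncounted. Of 30 other HECT ligase symbols, 15 were matched, and these had 26 sperm regions at 10 genes (17 hyper) and 14 embryo regions at 7 genes (7 hyper). Those genes were 66.7% and 46.7% of the matched ones, against 39.9% and 37.9% of all protein-coding genes. Of all listed regions, 62.0% in sperm and 50.4% in embryos were hyper. The matched ligase genes had a median length of 29.8 kb. Of protein-coding genes of 40 to 90 kb, 77.9% had a sperm region and 74.7% an embryo region. Of those of 5 to 15 kb, 33.3% and 30.8% did. The median of the ligase genes lay between these length classes, and no share was taken for genes of its size. HECT ligases hold ubiquitin on their own catalytic cysteine before passing it to a target, as HUWE1 does. The largest sperm differences were both in hecw2b, from 62.1% to 93.0% and from 54.9% to 85.1%, both higher after storage. The embryo list had ube3a, from 50.6% to 77.04% in its flank, and a hecw2b region, from 82.8% to 63.0%. That hecw2b embryo region overlapped the second of the hecw2b sperm regions and went the opposite way. The median absolute difference of the ligase regions was 12.7 points in sperm and 12.3 in embryos, near that of all listed regions.

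Of all protein-coding genes, 43.6% had a region in neither list, and 48.9% of those of 5 to 15 kb had none. The matched genes of the next lists were short, with a median length of 4.66 kb for HUWE1 substrates and partners and 5.35 kb for apoptosis genes and BIRC6 partners. The former median lay below the class of 5 to 15 kb and the latter near its lower end. No share was taken for genes of those sizes. Of 18 symbols of HUWE1 substrates and partners 8 were matched, with 1 sperm region, in the mitochondrial fusion gene mfn2 (94.5% to 83.7%), and 2 embryo regions. Those lay in mfn2 (88.7% to 99.4%) and in the proto-oncogene mycn (97.1% to 86.3%). Regions were absent from both lists at 6 of these 8 genes, cdc6 included. Of 21 symbols of the inhibitor of apoptosis family, caspases and BIRC6 partners 10 were matched, and 8 of them had no region in either list, among them casp3a, casp8 and diabloa. The sperm list held birc5a, the gene of the mitotic protein survivin, which went from 30.7% to 58.3%. The embryo list held 2 hyper regions, both in ube2o, from 83.8% to 96.4% and from 88.6% to 98.7%. That gene is neither a caspase nor a member of the inhibitor of apoptosis family.

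Of 30 other symbols of the COP9 signalosome and the cullin system 16 were matched. They had 10 sperm regions at 5 genes (8 hyper) and 11 embryo regions at 4 genes (4 hyper). Over the whole lists 62.0% of sperm regions and 50.4% of embryo regions were hyper. Those genes were 31.25% and 25% of the matched ones. Of protein-coding genes of 5 to 15 kb, 33.3% had a sperm region and 30.8% an embryo region. In neither list were there regions at 10 of the 16 genes, including the signalosome genes cops3, cops4 and cops9. The same held for 48.9% of genes of 5 to 15 kb. The largest sperm differences were at rnf7, a RING subunit of cullin ligases, from 76.7% to 52.3%, and at cul4a, a cullin scaffold, from 27.6% to 48.8%. Both largest embryo differences were in cul4a, from 97.9% to 85.3% and from 95.9% to 84.3%. The named regions in the body of cul4a reached from A1 16603703 to 16837622, whereas the matched genes had a median length of 7.22 kb. Of 10 other BEACH domain symbols 5 were matched, each with a region in at least 1 list. Their median length was 72.2 kb, and of all protein-coding genes of 40 to 90 kb only 7.68% had a region in neither list. The matched BEACH genes had 9 sperm regions at 4 genes (6 hyper) and 4 embryo regions at 3 genes (1 hyper). Those genes were 80% and 60% of the matched ones, against 77.9% and 74.7% of genes of 40 to 90 kb. The largest were at lyst, the lysosomal trafficking regulator, which went from 73.4% to 44.8% in sperm and from 90.8% to 73.5% in embryos. Next came wdfy4 in sperm, from 96.5% to 83.3%, and nsmaf in embryos, from 97.4% to 83.0%.

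**Figure D4:**
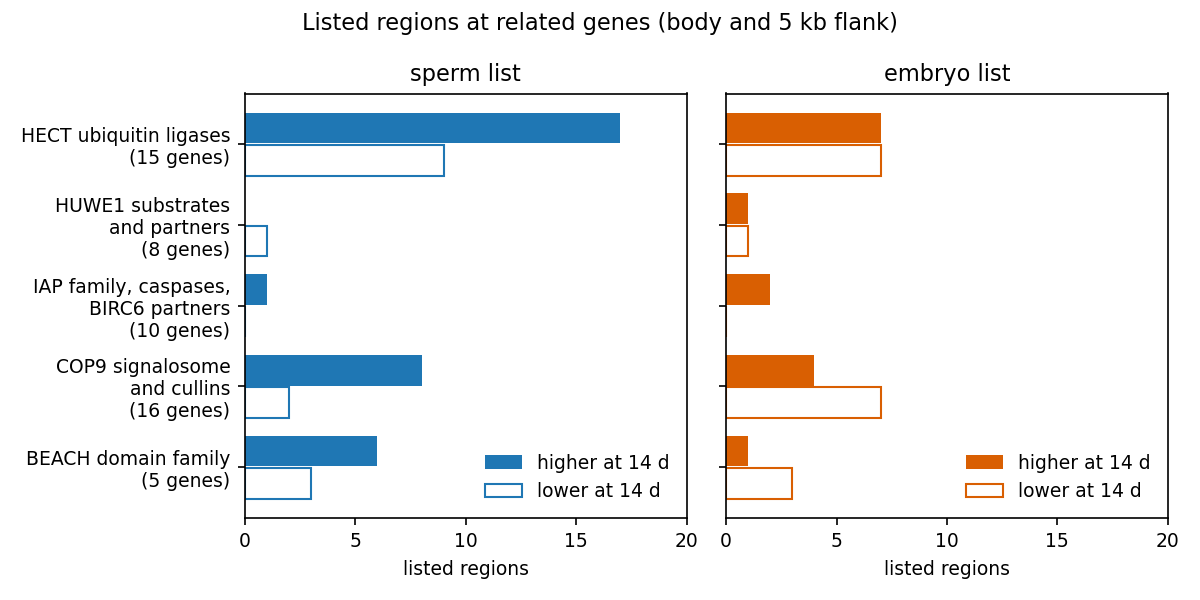
Listed regions in the body or 5 kb flank of genes related to the 4 genes, which are themselves left out. Bars count regions with a higher (filled) or lower (open) level in the 14-day group, in sperm (left) and embryos (right), with the number of matched genes in brackets. HECT ligases have the most, 26 in sperm and 14 in embryos, and the list of HUWE1 substrates and the apoptosis list have at most 2 in a panel. The bars are not adjusted for the number or length of the genes.

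The named genes most like each member were found by the distance, in percentage points, between mean levels over listed regions. For huwe1, compared over the 2 embryo groups with 1502 genes, the nearest was nup98, a nuclear pore gene on A21, at 95.5% and 81.5% and a distance of 0.186 points. It was followed by cbln13 and zgc:66427 on B2, each with 1 embryo region and with equal levels of 94.9% and 81.5%. Neighbouring genes can share a region through the 5 kb flank, and whether these did was not checked. Over all 4 groups birc6 had no close match, with snx8b on A1 nearest of 2013 genes at 7.43 points. For cops6 the nearest of 2014 genes was psmd10 on A14, at 4.81 points, then prpf4bb on B24 and tia1 on B5. For nbeal1 it was rgs12b on B1, at 2.05 points, then tnksa on B21 and tln1 on B10. The likeness rests on 2 or 4 pooled values per gene, which come from the same libraries. For cops6 those values are means over regions outside its body and inside neighbouring genes. Its 2 sperm regions differed by 18.0 and -32.1 points, so their mean describes neither.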

How the data were processed

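Whole-genome bisulphite libraries of 4 groups were compared, 3 libraries per group. The authors mapped reads to the common carp assembly ASM1834038v1 with BSMAP, whose version was not given in the sources,, removed duplicates and took the level as methylated over all reads at a cytosine. The authors deposited 1 list of CG regions per tissue, with the level of each region in each group as a fraction, here given in percent, 1 value per group of pooled libraries. The deposited lists also hold the authors' own difference and p-value per region; the former was not used, and the latter was read only to check that all lay under 0.05. The study's methods name a 2-fold change, which 1618 sperm and 1640 embryo regions met, so the lists are wider than that limit. The cytosine numbers count both strands, since 235 sperm and 229 embryo regions were too short for that many CpG dinucleotides. Depth per library is unknown here.

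Chromosomes were named A1 to A25 and B1 to B25 by sorted accession, and the last listed region of each of the 50 lay within 130 kb of the last annotated gene's end. The 3143 sperm and 3059 embryo regions on joined unplaced sequence were left out of gene counts. Gene positions came from the RefSeq table of the same assembly, with no strand, exons or introns, so a region's place is given only as body or flank. The names huwe1, cops6 and nbeal1 for the LOC genes are those of the study. Coordinates are as listed, with both ends counted. Python 3.11.15 with pandas 2.3.3 was used, and the assignment of regions to genes was tested on simulated data.

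A region belonged to a gene when it overlapped the body or 5 kb flank by at least 1 bp. All regions of the 4 genes were named, for related lists up to 2 regions per list and tissue with the largest absolute difference, and the 3 most alike genes with symbols. Genes and lists were chosen with earlier results of these data known. Alternatives were other flanks, larger minimum differences, more cytosines, full containment and other averages. RNA and protein data were not analysed here.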

Additional observations from a re-analysis of the deposited data

How the results depend on the processing

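No test was run, so the limits concern counts and levels. No paired analysis was possible because the lists held 1 pooled value per group, and for the same reason no library could be left out in turn. The comparison of proteins that would find the other subgenome's copies was not run. Counts of 6 sperm and 7 embryo regions changed with the limits. With a 10 kb flank there were 11 embryo regions. A minimum difference of 15 points left 3 sperm regions and 1 embryo region, and one of 20 points left 2 and 1. At least 8 CG cytosines left 0 sperm and 2 embryo regions. In embryos the hyper share was 0% with the gene body only and 100% with either minimum difference, where the 1 region left was the hyper one beside cops6. Overlapping pairs numbered 0 under the flank, difference, cytosine and containment alternatives, and 8.11% of all embryo regions overlapped a sperm region. Apart from the 10 kb flank, these alternatives only kept some of the same regions, so their 0 was fixed in advance. Pairs within 1 kb of each other numbered 2, both beside cops6. The other 24 recomputed counts and shares stayed within 1.5 times the count or within the Wilson interval of the share. These include the overlap counts of 0. With only 6 and 7 regions that interval is wide, so staying within it says little. Of 47 recomputed mean differences per gene, 0 changed sign. Only the sperm regions of cops6 and nbeal1 went in both directions. For the other means a change of sign could come only from regions added by the 10 kb flank. The sperm mean of nbeal1 was 3.35 points weighted by cytosines and 10.7 points as a median over its regions.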

Other observations

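Regions beyond the flanks were counted within 100 kb on either side of the 4 genes. Over all chromosomes there were 2.48 sperm regions and 2.35 embryo regions per 100 kb. Over the whole lists 62.0% of sperm regions and 50.4% of embryo regions were hyper, and the small counts below were not tested against those shares. Around nbeal1 there were 4 sperm regions, all hyper, and 7 embryo regions, of which 3 were hyper. Among the latter was the largest difference near any of the 4 genes, at A6 2335805 to 2335822 in no annotated gene, where 5 CG cytosines were at 78.4% in the fresh group and 34.7% in the 14-day group. Around birc6 the 4 sperm regions were also all hyper, and 3 of 5 embryo regions were hyper. Around huwe1 there were 2 sperm regions, both hypo, and 5 embryo regions, 2 of them hyper. One of these, in LOC109064079 at A23 14703720 to 14703794 with 18 CG cytosines, went from 72.2% to 90.8%, opposite to the regions inside huwe1. Around cops6 there were 9 sperm regions, 4 of them hyper, and 4 embryo regions, 2 of them hyper.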
